A study of Homo sapiens with 42 samples.

Results

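The Hippo pathway was followed here through 8 transcripts: NF2 (ENSG00000186575), LATS1 (ENSG00000131023), LATS2 (ENSG00000150457), YAP1 (ENSG00000137693), WWTR1 or TAZ (ENSG00000018408), TEAD1 (ENSG00000187079), CCN1 or CYR61 (ENSG00000142871) and CCN2 or CTGF (ENSG00000118523). Their N6-methyladenosine (m6A) peaks were taken from 7 peak lists of HepG2, a human hepatocellular carcinoma cell line, by the Ensembl gene identifier that the lists give each peak. The 8 genes held 178 of the 211410 peaks in all lists, and 27 of the 33672 peaks of the control list. m6A is a methyl mark on adenosines of messenger RNA, and m6A-seq maps it by sequencing RNA fragments pulled down with an antibody to the mark (IP) beside unselected RNA (input).

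Each list belongs to 1 condition. Short hairpin RNAs (shRNAs) were delivered to the cells by lentivirus and held by puromycin. They were directed at METTL3, which catalyses m6A on mRNA (shMETTL3), or at METTL14, which binds METTL3 and the RNA (shMETTL14). Others were directed at WTAP, a further part of the complex that writes m6A (shWTAP), or at SETD2, which methylates histone H3 (shSETD2 #1). A non-specific shRNA served as the control. A further SETD2 hairpin (shSETD2 #2) has its own non-specific shRNA samples, called the second control; these 2 lists form the second set and the other 5 the first. SETD2 is thus the target that 2 hairpins address, and how far each target was reduced was not measured here. Every condition had 3 input and 3 IP libraries, 42 in all, joined into 1 list, so no value below has a replicate error and no test between conditions was possible. Depth per library is unknown from these files, and each p-value and fold enrichment is the authors' value for that peak. The lists held 28645 to 33672 peaks, and their median fold enrichment of IP over input ran between 3.81 and 7.02, so values are set side by side and differences between lists are read against the difference between the 2 controls.

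The Hippo pathway is a kinase cascade that restrains growth and, in the liver, organ size. NF2 (merlin) acts at the membrane to activate the kinases LATS1 and LATS2, which phosphorylate the co-activators YAP1 and WWTR1 and keep them out of the nucleus. When the kinases are inactive, YAP1 and WWTR1 join TEAD transcription factors such as TEAD1 on DNA and switch on genes including CCN1 and CCN2, which encode secreted matrix proteins.

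CCN2 is a textbook target of this step, and TEAD proteins are known to bind elements that contain GGAATG, so its promoter is shown here. RefSeq (GRCh38.p14) gave a promoter of 300 bases for 6 of the 8 genes, from 250 bases before to 50 after the start of the gene. GGAATG or its reverse complement CATTCC occurred in 14.0% of the 35116 promoters in the table. Among the 6 genes it occurred 3 times in CCN2, once each in YAP1 and LATS2 and in none of the promoters of NF2, LATS1 and WWTR1. At least 3 copies occurred in 0.125% of all promoters. The stretch of CCN2 with its copies in capitals, at chr6:131951452-131951551 on the minus strand, runs from 179 to 80 bases before the gene start. The m6A lists use another build (hg19), so peaks were not placed on this sequence.
CCN2 promoter: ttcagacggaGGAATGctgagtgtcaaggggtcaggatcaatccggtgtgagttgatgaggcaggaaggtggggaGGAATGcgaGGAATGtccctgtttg

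Peaks of the same gene that shared at least 1 base of their blocks (the exon parts of a peak) were joined across lists into sites, numbered from the 5′ end of each gene. The 8 genes had 33 sites, of which 11 had a peak in all 7 lists, 18 in 2 to 6 lists and 4 in 1 list. All 8 genes had a peak in every list, while 66.9% of all genes with a control peak did. Of the 27 control peaks of these genes, 11 (40.7%) were overlapped in all the other 6 lists, close to the 45.7% over all control peaks. CCN2 was the gene whose sites all had a peak in every list, and YAP1, CCN1 and NF2 shared with it a 3′-most site present in all 7.

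**Figure D1:**
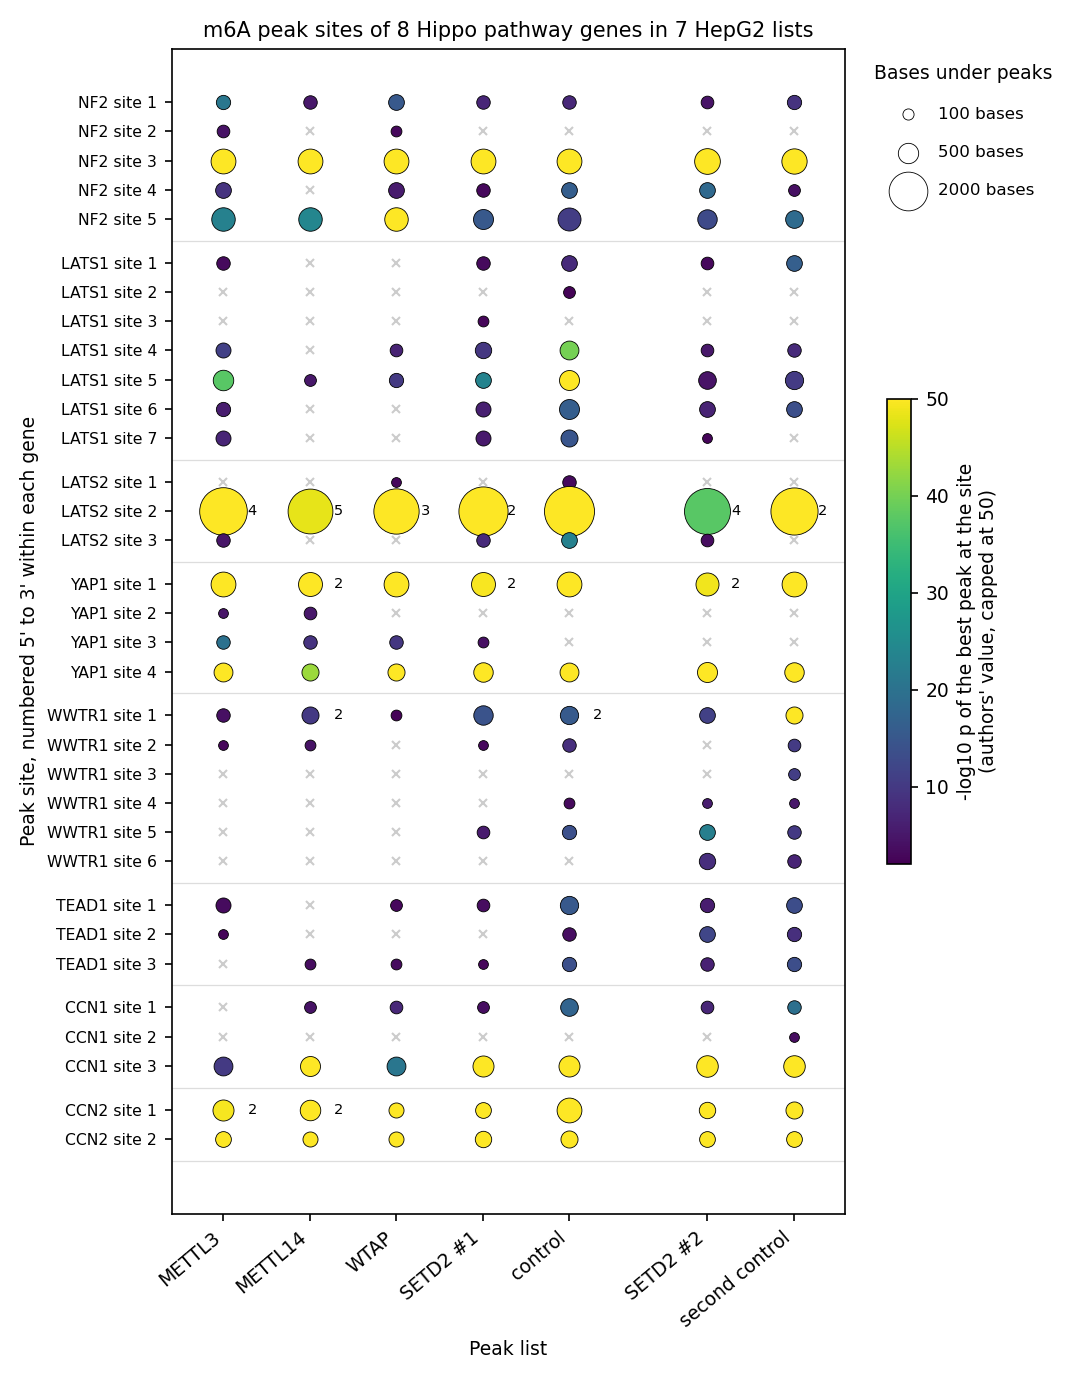
Peak sites of the 8 genes (rows, numbered from the 5′ end) in the 7 lists (columns). Circle area grows with the bases under peaks, colour gives the authors' -log10 p of the best peak up to 50, a number gives the peaks at a site where there was more than 1, and a grey cross marks no peak. The 11 sites with a circle in every column include both CCN2 sites and 3 NF2 sites.

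The first question was which pathway peaks of the control went uncalled under shMETTL3, shMETTL14 and shWTAP. A control peak was called absent when no peak of the other list shared a base with it on the same strand. Of the 27 control peaks, 7 (25.9%) were absent from the shMETTL3 list, against 22.8% of all control peaks. From the shMETTL14 list 12 (44.4%) were absent, against 29.8% of all control peaks, and from the shWTAP list 10 (37.0%), against 28.8%. The second control lacked 5 (18.5%), against 28.6% of all control peaks. The 95% Clopper-Pearson intervals of the member shares, which cover counting error only, were 11.1 to 46.3% for shMETTL3, 25.5 to 64.7% for shMETTL14 and 19.4 to 57.6% for shWTAP, and each holds the share of all peaks.

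LATS1 and WWTR1, which held 11 of the 27 control peaks, made up 7 of the 12 peaks absent from the shMETTL14 list and 8 of the 10 absent from the shWTAP list. They also made up 3 of the 5 absent from the second control. YAP1 and CCN2 lost none in any of the 5 knockdown lists. Peaks of a gene share its transcript, so fewer transcripts per cell and fewer methylated transcripts cannot be told apart here.

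Among better supported peaks the gap to the whole list was larger. The control list's median p-value was met or bettered by 18 member peaks, of which 3 were absent from shMETTL3, 7 from shMETTL14 and 4 from shWTAP. Over all control peaks that met it the absent shares were 2.42% for shMETTL3, 7.9% for shMETTL14 and 7.41% for shWTAP. The second control lacked 2 of the 18, against 7.28%. Member peaks and all control peaks that met the median were not matched in support. The 3 absent from shMETTL3 had a log10 p of -13.7 to -17.3, near the list's median of -11.8. Most of those absent from shMETTL14 and shWTAP had -13.7 to -16.2. How far support accounts for the larger gap was not tested. Since 3 of the 7 shMETTL14 peaks belonged to LATS1, they do not count as independent losses.

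LATS1, the kinase that inactivates YAP1, had its sparsest coverage under shMETTL14 and shWTAP. The list of shMETTL14 held 1 LATS1 peak, that of shWTAP 2, that of shMETTL3 5 and that of shSETD2 #1 6, against 6 in the control. Peaks covered 1380 bases of LATS1 in the shMETTL3 list, 121 under shMETTL14, 360 under shWTAP and 1323 under shSETD2 #1, against 2100 in the control. The shSETD2 #2 list covered 993 bases, against 1110 in the second control. The shMETTL14 and shWTAP values thus lay below both controls and below the other 3 knockdowns.

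The LATS1 peak with the best support of those absent from shMETTL14 was site 4, on chromosome 6 from 150004871 to 150005290 (minus strand, hg19), with 8.01-fold enrichment (log10 p of -40.0) in the control. Of the 9355 control peaks with a p-value as good as that, 1.2% were absent from the shMETTL14 list. Site 4 was 240 bases wide under shMETTL3, 150 under shWTAP and 300 under shSETD2 #1, against 420 in the control, and 150 under shSETD2 #2, against 180 in the second control. It was therefore called in 6 of 7 lists, and narrower than in the control wherever it was called.

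The neighbouring site 5, next to it on the 3′ side, was the only LATS1 site in all 7 lists. It spanned 509 bases under shMETTL3, 121 under shMETTL14, 210 under shWTAP and 270 under shSETD2 #1, against 480 in the control, and 360 under shSETD2 #2, against 390 in the second control. Its log10 p was -37.6 under shMETTL3, -5.03 under shMETTL14, -10.1 under shWTAP and -23.5 under shSETD2 #1, against -60.5 in the control, and -4.6 under shSETD2 #2, against -10.3 in the second control. Support at site 5 was thus lowest under shMETTL14 and shSETD2 #2, and it was also lower in the second control than in the control.

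Sites 1 and 6 of LATS1 were called in both controls, under shMETTL3 and in both SETD2 lists, but under neither shMETTL14 nor shWTAP. Site 6, from 150001125 to 150004064, had 4.54-fold enrichment over 479 bases in the control and 3.51-fold over 270 bases in the second control. Site 1, at the 5′ end from 150037550 to 150039242, had 270 bases in both controls. In the control its log10 p was -7.72, and in the second control -16.4. It was weaker where else it was called, with -3.15 under shMETTL3, -3.3 under shSETD2 #1 and -3.05 under shSETD2 #2. Site 7, the 3′-most, from 149982967 to 149983296, was absent from shMETTL14, shWTAP and the second control, so a control list lacked it too. Site 2 appeared in the control list alone and site 3 under shSETD2 #1 alone, with weak support (log10 p of -2.48 in the control and -2.86 under shSETD2 #1).

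LATS2, the paralogous kinase, was covered along most of its peak-bearing length in every list. In the control 1 peak of 3389 bases in 8 blocks ran on chromosome 13 from 21549060 to 21620271 (minus strand), with 55.7-fold enrichment. The same stretch was broken into 4 peaks under shMETTL3, 5 under shMETTL14, 3 under shWTAP and 2 under shSETD2 #1, and into 4 under shSETD2 #2, against 2 in the second control. Bases under LATS2 peaks numbered 3243 under shMETTL3, 2704 under shMETTL14, 2822 under shWTAP and 3451 under shSETD2 #1, against 3841 in the control, and 3003 under shSETD2 #2, against 3000 in the second control. A higher number of LATS2 peaks therefore went with fewer covered bases under shMETTL3, shMETTL14 and shWTAP, where the long control peak was split.

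The 3′-most LATS2 site, from 21548700 to 21548970, had a log10 p of -22.9 and 6.61-fold enrichment in the control. It was absent from shMETTL14, shWTAP and the second control, and present under shMETTL3, shSETD2 #1 and shSETD2 #2. Among control peaks with a p-value at least as good, 3.32% were absent from shMETTL14, 2.91% from shWTAP and 3.94% from the second control. This LATS2 site lies at the weak end of that set. The 5′-most site was weak wherever it was called, with a log10 p of -3.07 under shWTAP and -3.28 in the control.

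**Figure D2:**
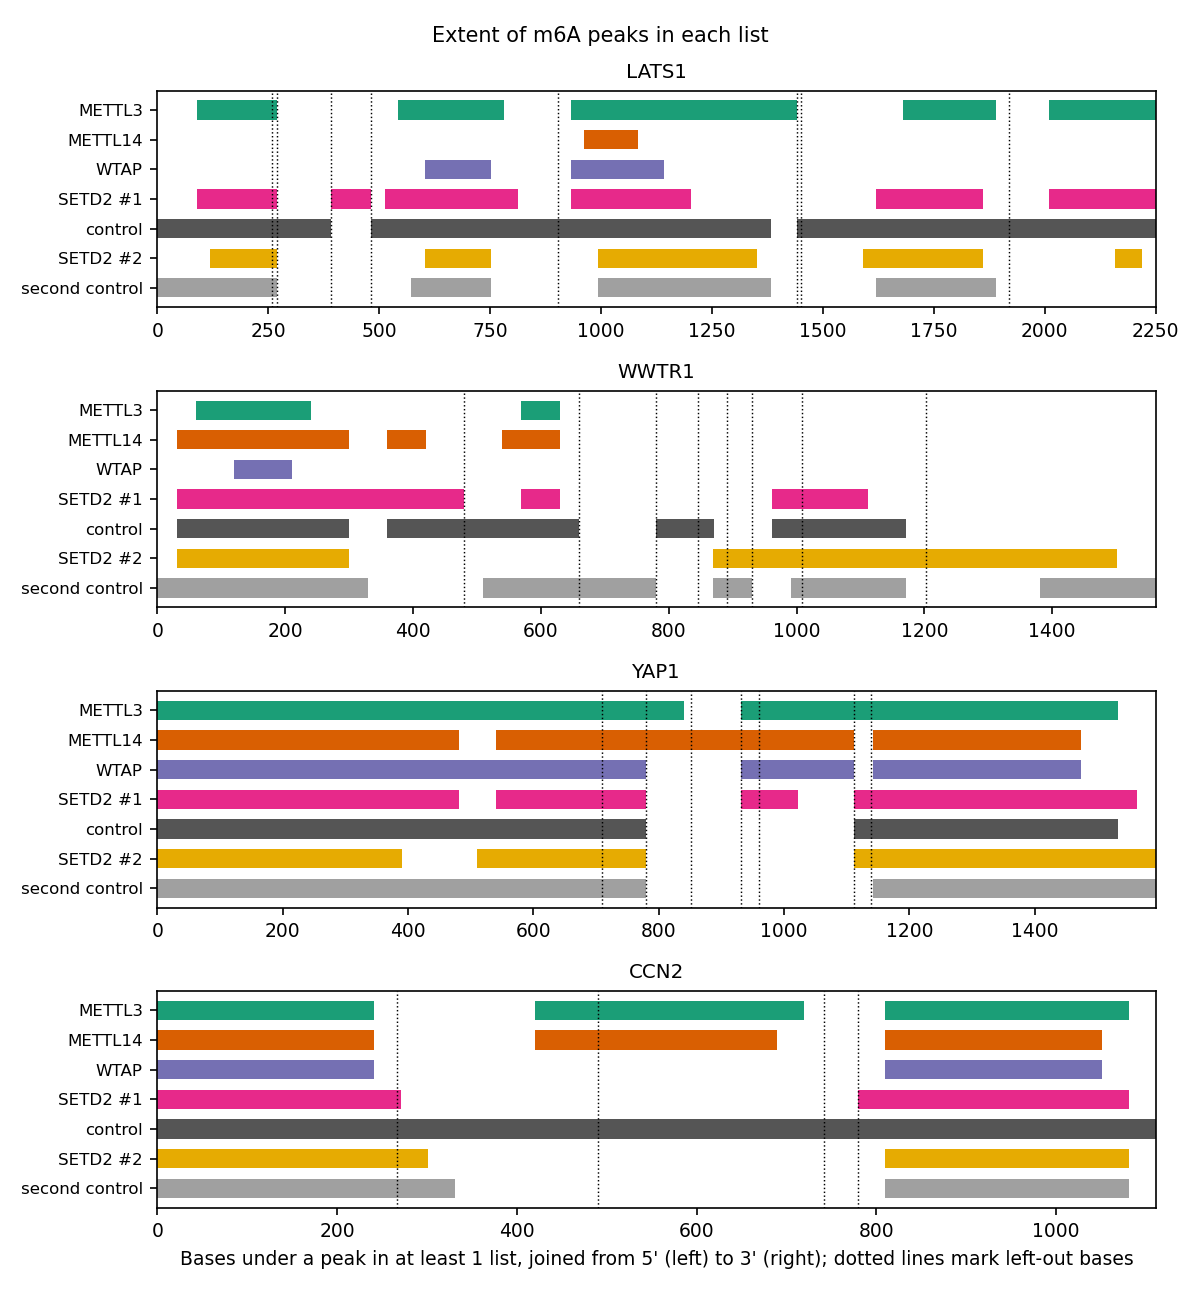
Extent of the peaks of LATS1, WWTR1, YAP1 and CCN2 in each list, drawn on an axis in bases that holds only positions under a peak in at least 1 list, from 5′ (left) to 3′ (right). Dotted lines mark where positions are left out, so bars that meet there can be blocks of 1 peak or separate peaks. LATS1 is covered over 121 bases under shMETTL14, against 2100 bases in the control.

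NF2, the upstream activator of the kinases, kept most of its peaks. Site 3 covered 781 bases in 7 blocks on chromosome 22 from 30064404 to 30079019 (plus strand), with the same edges under shMETTL3, shMETTL14, shWTAP and shSETD2 #1 and in the control. Under shSETD2 #2 it covered 841 bases, against 811 in the second control. Its fold enrichment was 17.9 under shMETTL3, 26.0 under shMETTL14, 18.9 under shWTAP and 16.8 under shSETD2 #1, against 20.7 in the control, and 9.28 under shSETD2 #2, against 10.5 in the second control. NF2 site 3 thus had the same edges in 5 lists and was wider in the other 2.

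Site 4 of NF2, from 30080129 to 30091017, was missing from the shMETTL14 list alone, with 3.15-fold enrichment (log10 p of -16.2) in the control. NF2 also had a site that neither control held, site 2, called under shMETTL3 (151 bases, 2.24-fold) and under shWTAP (91 bases, 2.35-fold). Site 5, at the 3′ end, was called in all lists, with 691 bases under shMETTL3, shMETTL14 and shWTAP and 481 under shSETD2 #1, against 661 in the control, and 451 under shSETD2 #2, against 361 in the second control.

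YAP1, the co-activator that the kinases restrain, had more peaks in every knockdown list than in its control. It had 4 under shMETTL3, 5 under shMETTL14, 3 under shWTAP and 4 under shSETD2 #1, against 2 in the control, and 3 under shSETD2 #2, against 2 in the second control. A rise in peak number was seen for 14.6% of control genes under shMETTL3, 15.5% under shMETTL14, 15.0% under shWTAP and 13.4% under shSETD2 #1, and for 15.9% of second control genes under shSETD2 #2. Between the 2 controls, 20.8% of control genes had more peaks in the second control, where YAP1 had as many. Part of the rise was a split peak and part was additional sites, so the count alone does not show more methylation.

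The split concerned site 1 of YAP1, which in all 7 lists began at the same base of chromosome 11, 101981192 (plus strand). It was a single peak of 780 bases to 101983315 under shMETTL3 and shWTAP and in both controls, and a pair of peaks under shMETTL14 and in both SETD2 lists. Its best fold enrichment was 45.2 under shMETTL3, 26.2 under shMETTL14, 24.3 under shWTAP and 6.23 under shSETD2 #1, against 84.0 in the control, and 5.35 under shSETD2 #2, against 14.0 in the second control. The control value was among the highest 1.48% of its list.

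The additional YAP1 sites lay between the 5′ and 3′ peaks. Site 3, from 102057389 to 102076775 in 2 blocks, was called under shMETTL3 (log10 p of -19.9), shMETTL14 (-8.94), shWTAP (-9.55) and shSETD2 #1 (-3.92), and neither under shSETD2 #2 nor in either control. Site 2, from 101983405 to 101984953, was called under shMETTL3 (61 bases) and shMETTL14 (151 bases) only. All of these peaks were low in fold enrichment, from 1.54 for site 3 under shSETD2 #1 to 2.42 for site 2 under shMETTL14. They made up 6 of the 9 member peaks called in a first-set knockdown and absent from the control.

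Across the 8 genes, the peaks absent from the control were 3 of 27 under shMETTL3, 2 of 23 under shMETTL14, 2 of 21 under shWTAP and 2 of 26 under shSETD2 #1. Over whole lists the shares of such peaks were 10.6% under shMETTL3, 12.7% under shMETTL14, 13.5% under shWTAP and 8.07% under shSETD2 #1. Under shSETD2 #2, 3 of 28 were absent from the second control, against 14.5% of the whole list, and 3 of 26 second control peaks were absent from the control, against 15.6%. The member shares were 11.1% under shMETTL3, 8.7% under shMETTL14, 9.52% under shWTAP and 7.69% under shSETD2 #1. None of these 4 first-set member shares exceeded the 11.5% of second control member peaks absent from the control. Where 50% of each peak had to be shared, all 4 exceeded the second control's 30.8%, at 34.6 to 57.1%. Over whole lists the shares were then 27.9 to 35.9% in the 4 knockdowns and 40.8% in the second control.

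The 3′ site of YAP1, from 102098287 to 102100887, was among the best supported peaks of the pathway. It had a log10 p of -313 under shMETTL3, -42.8 under shMETTL14, -78.1 under shWTAP and -222 under shSETD2 #1, against -365 in the control, and -232 under shSETD2 #2, against -385 in the second control. Its fold enrichment was 4.94 under shMETTL3, 3.47 under shMETTL14, 3.0 under shWTAP and 4.43 under shSETD2 #1, against 5.25 in the control, and 4.05 under shSETD2 #2, against 4.57 in the second control. The site thus persisted in each knockdown, with the least support under shMETTL14 and shWTAP.

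WWTR1, the paralogue of YAP1, went the other way in number of peaks. It had 2 under shMETTL3, 3 under shMETTL14, 1 under shWTAP and 3 under shSETD2 #1, against 5 in the control, and 4 under shSETD2 #2, against 6 in the second control. Fewer peaks than in the control were seen for 35.7% of genes under shMETTL3, 42.9% under shMETTL14, 42.4% under shWTAP, 39.9% under shSETD2 #1 and 36.6% in the second control, and for 32.9% of second control genes under shSETD2 #2. Peaks covered 241 bases of WWTR1 under shMETTL3, 422 under shMETTL14, 90 under shWTAP and 662 under shSETD2 #1, against 873 in the control, and 902 under shSETD2 #2, against 1023 in the second control. WWTR1 was thus below its control in every knockdown, as were LATS1, TEAD1, CCN1 and CCN2, while LATS2 was below it in the 4 first-set knockdowns. For the 5 genes other than WWTR1 the second control was below the control too. Peaks of LATS1, LATS2, TEAD1, CCN1 and CCN2 covered 1110, 3000, 693, 812 and 602 bases in the second control, against 2100, 3841, 783, 900 and 1111 in the control.

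Among the WWTR1 sites that both controls held, sites 4 and 5 were absent from the most lists. Site 5, on chromosome 3 from 149238584 to 149243669 (minus strand), was absent from shMETTL3, shMETTL14 and shWTAP and present in both SETD2 lists and both controls. Its fold enrichment was low throughout, with 1.74 under shSETD2 #1, against 1.87 in the control, and 2.2 under shSETD2 #2, against 1.6 in the second control. Site 4, whose control and second control peaks share a single base, was absent from all 4 first-set knockdowns, and site 6 was called under shSETD2 #2 and in the second control only. The 5′ site 1, from 149375373 to 149375852, was called in all 7 lists, down to a peak of 90 bases with a log10 p of -2.46 under shWTAP. The control had 2 peaks there, and no peak shared a base with the 3′ one of them, of 121 bases, under shMETTL3, shWTAP or shSETD2 #2 or in the second control. Site 2 was absent from shWTAP and shSETD2 #2.

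Some of these peaks cannot be assigned to a strand with certainty. Peaks with the same blocks on opposite strands of a list had the same p-value and fold enrichment in 53 of 58 such pairs over the 7 lists, although the libraries were stranded. Among the 8 genes, 14 of 24 WWTR1 peaks, 7 of 23 YAP1 peaks and 7 of 16 CCN2 peaks overlapped a peak on the other strand, and no peak of the other 5 genes did. They were the peaks of WWTR1 sites 1 and 2, of the 3′ YAP1 site and the outermost peak at the 5′ end of CCN2. The opposite genes carry the identifiers ENSG00000241313.2, ENSG00000254422.1 and ENSG00000227220.1. Without these peaks 22 control peaks were left, of which 6 were absent from shMETTL3, against 23.7% of all control peaks counted in this way. From shMETTL14 12 were absent, against 30.9%, from shWTAP 8, against 29.8%, and from shSETD2 #1 4, against 27.9%. The second control lacked 4, against 29.1%, and shSETD2 #2 lacked 2 of 22 second control peaks, against 20.6%.

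TEAD1, the DNA-binding partner of the co-activators, was narrowly covered in the first-set knockdowns. Peaks covered 302 bases under shMETTL3, 91 under shMETTL14, 212 under shWTAP and 212 under shSETD2 #1, against 783 in the control, and 663 under shSETD2 #2, against 693 in the second control. The 4 first-set values all lay below both controls. Site 1, on chromosome 11 from 12696138 to 12766641 (plus strand), had 53.1-fold enrichment in the control and was absent from shMETTL14 alone. It was weak in the other first-set knockdowns. Its log10 p was -3.37 under shMETTL3, -3.09 under shWTAP and -3.58 under shSETD2 #1, against -15.2 in the control. Under shSETD2 #2 it was -5.81, against -13.1 in the second control. Site 3, from 12963930 to 12964170, was absent from shMETTL3 alone, and where it was called it had 1.87-fold to 3.22-fold enrichment.

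The target genes CCN1 and CCN2 had a 3′ peak in every list. The 3′ peak of CCN1, on chromosome 1 from 86048448 to 86049017 (plus strand), was 420 bases wide under shMETTL3, 480 under shMETTL14, 420 under shWTAP and 540 under shSETD2 #1, against 540 in the control, and 570 both under shSETD2 #2 and in the second control. Its log10 p was -10.2 under shMETTL3, -68.5 under shMETTL14, -20.9 under shWTAP and -78.0 under shSETD2 #1, against -201 in the control, and -139 under shSETD2 #2, against -81.0 in the second control. By p-value its support was weakest under shMETTL3, where 55.1% of the peaks in the list had a p-value as good. Its fold enrichment was 3.26 under shMETTL3, 3.06 under shMETTL14, 3.03 under shWTAP and 5.08 under shSETD2 #1, against 4.85 in the control. Under shSETD2 #2 it was 4.94, against 4.01 in the second control.

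The 5′ peak of CCN1 was absent from shMETTL3 alone. In the control it ran from 86046444 to 86046955 with 16.5-fold enrichment (log10 p of -17.3). Of control peaks with a p-value at least as good, 1.16% were absent from shMETTL3, and this peak lies at the weak end of them. Elsewhere it was 121 bases wide under shMETTL14, 151 under shWTAP and 121 under shSETD2 #1, against 360 in the control, and 151 under shSETD2 #2, against 181 in the second control. All those peaks began at the same base, and they differed at the 3′ edge.

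The 3′ peak of CCN2, on chromosome 6 from 132270215 to 132270545 (minus strand), was the best supported of the 8 genes in 5 of the 7 lists. Its log10 p was -541 under shMETTL3, -402 under shMETTL14, -255 under shWTAP and -765 under shSETD2 #1, against -924 in the control, and -392 under shSETD2 #2, against -354 in the second control. Its fold enrichment was 6.29 under shMETTL3, 4.95 under shMETTL14, 3.87 under shWTAP and 5.8 under shSETD2 #1, against 7.92 in the control, and 3.58 under shSETD2 #2, against 4.31 in the second control. NF2 site 3 had the better p-value under shWTAP, and the 3′ YAP1 site in the second control.

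The 5′ peak of CCN2 was longest in the control. In the control 1 peak of 780 bases in 4 blocks ran from 132271263 to 132272513 with 27.4-fold enrichment. In the other 6 lists a peak ended at the same 5′ base and covered 241 bases under shMETTL3, shMETTL14 and shWTAP, 271 under shSETD2 #1, 301 under shSETD2 #2 and 331 in the second control. shMETTL3 and shMETTL14 had a further, weaker peak downstream, of 300 bases (1.9-fold) and 270 bases (1.67-fold). The 331 bases of the second control were thus nearer to the knockdowns than to the 780 bases of the control.

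**Figure D3:**
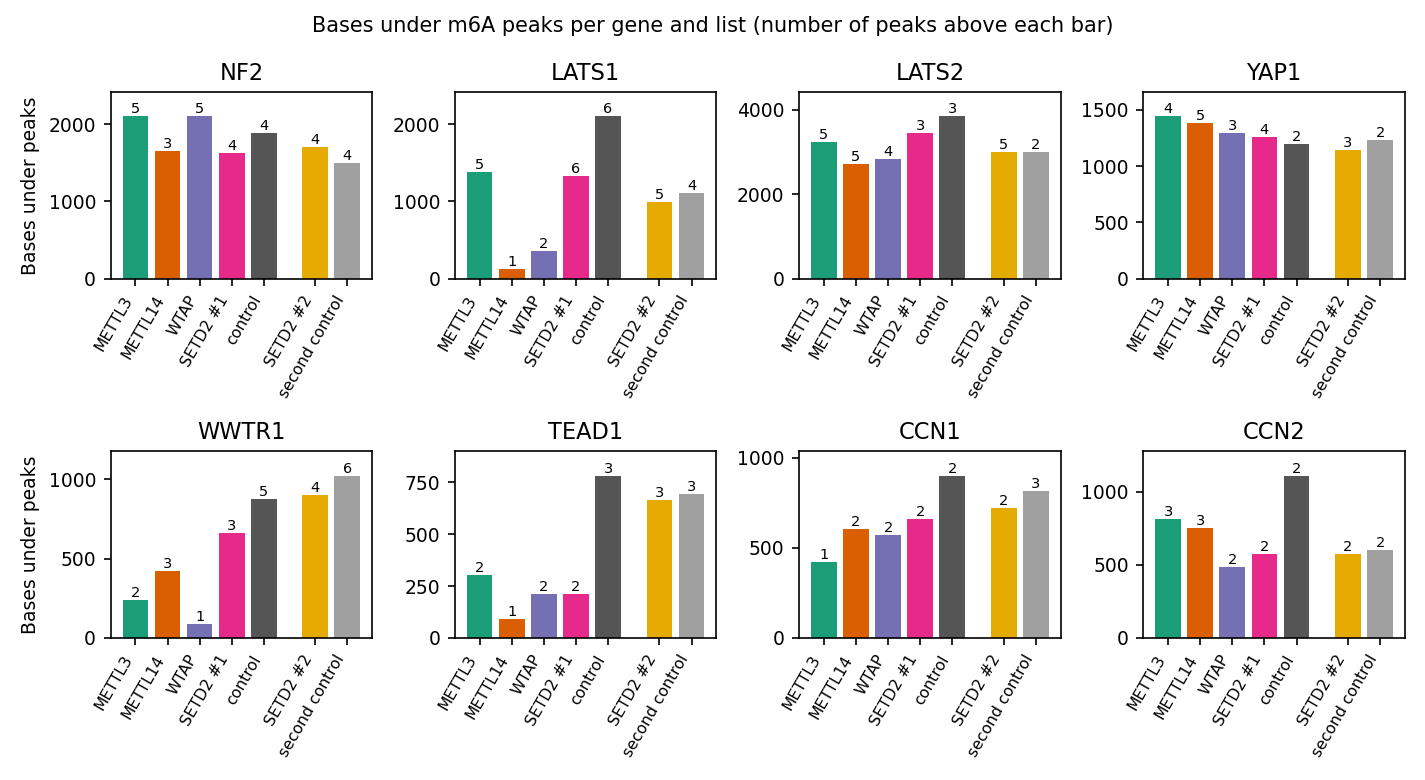
Bases under m6A peaks (vertical axis, from 0) of each gene in each list, with the number of peaks above each bar and no error bars, since each list pools all replicates. LATS1, WWTR1 and TEAD1 have the shortest bars under shMETTL14 or shWTAP, and YAP1 has 1384 bases under shMETTL14, against 1201 in the control.

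Counted by bases, the genes fell on both sides of the whole list. The share of control peak bases still under a peak was 74.3% over the 8 genes under shMETTL3, 58.0% under shMETTL14, 59.4% under shWTAP and 74.3% under shSETD2 #1, against 77.1, 68.7, 69.9 and 71.9% over all control peaks in the same order of lists. Under shSETD2 #2 it was 87.7% of second control bases, against 78.4% over all peaks, and in the second control 72.1% of control bases, against 64.7%. YAP1 kept 100% under shMETTL3, 87.6% under shMETTL14 and 92.5% under shWTAP, and NF2 kept 100, 85.7 and 100%. LATS2 kept 84.4, 70.4 and 73.5% in the same order of lists. LATS1 kept 62.9% under shMETTL3, 5.76% under shMETTL14, 17.1% under shWTAP and 58.7% under shSETD2 #1. TEAD1 kept 38.6% under shMETTL3, 11.6% under shMETTL14, 27.1% under shWTAP and 19.4% under shSETD2 #1. WWTR1 kept 27.6% under shMETTL3, 48.3% under shMETTL14, 10.3% under shWTAP and 69.1% under shSETD2 #1. It was the lowest of the 8 genes under shMETTL3 and shWTAP. In the second control LATS1 kept 52.9%, TEAD1 65.5% and WWTR1 69.0%. The median over all genes was 77.8% under shMETTL3, 66.0% under shMETTL14 and 66.9% under shWTAP, and 19.0% of genes kept as little as LATS1 or less under shMETTL14. Low values for a single gene were therefore common, with genes that lost every peak counted among them. These genes were not matched to LATS1 in number of peaks. How common a partial loss like that of LATS1 was is thus not shown.

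**Figure D4:**
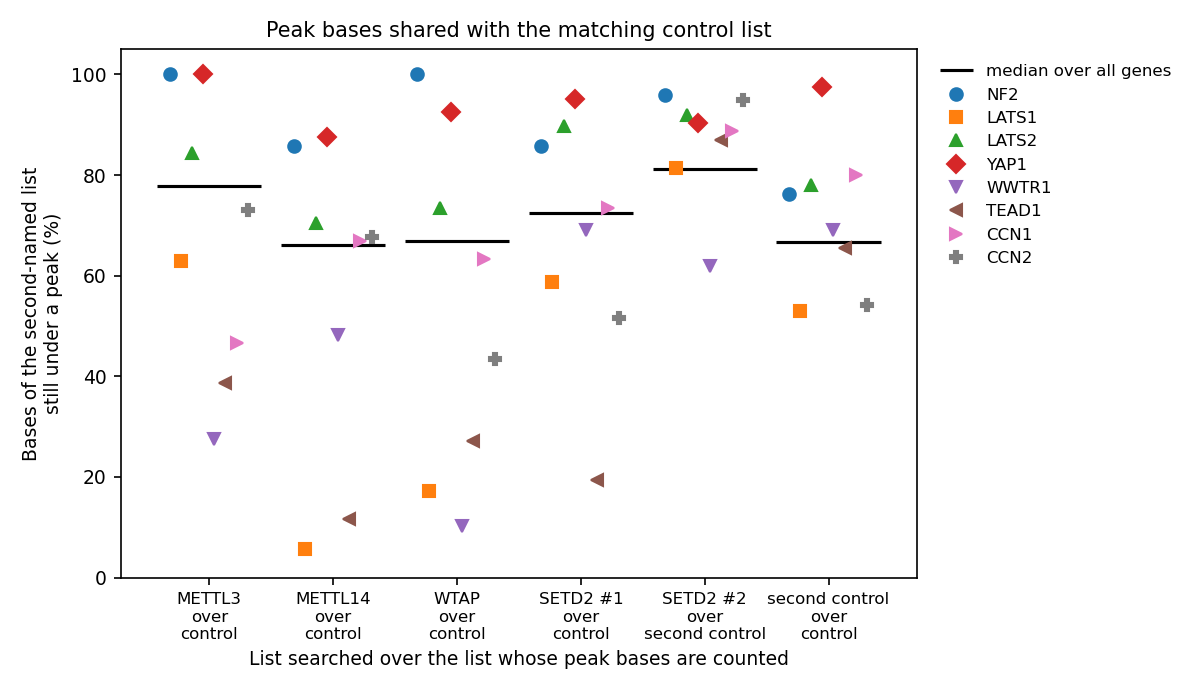
Share (%) of the peak bases of a control list (named last under each column) that lay under a peak of the list named first, for each of the 8 genes (symbols) and as the median over all genes (black line). The 5 knockdown comparisons stand left of the second control over the control. YAP1, NF2 and LATS2 lie above the line in all 6 comparisons, and LATS1 lies at 5.76% under shMETTL14.

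Both SETD2 lists lacked a smaller share of the pathway's peaks than of all peaks, by a margin within the counting intervals. Of the 27 control peaks, 4 (14.8%) were absent from the shSETD2 #1 list, against 27.0% of all control peaks. Of the 26 second control peaks, 3 (11.5%) were absent from the shSETD2 #2 list, against 20.5% of all second control peaks. The 4 were LATS1 site 2, LATS2 site 1, WWTR1 site 4 and TEAD1 site 2, and the 3 were CCN1 site 2 and WWTR1 sites 2 and 3. The intervals were 4.19 to 33.7% for shSETD2 #1 and 2.45 to 30.2% for shSETD2 #2, and each holds the share of all peaks.

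With peaks limited in all lists to an FDR of at most 1e-05, 8 of 22 control peaks (36.4%) were absent from shSETD2 #1, against 25.3% of all control peaks. Under that limit 7 of 23 second control peaks (30.4%) were absent from shSETD2 #2, against 21.4%. In the shorter deposited lists 6 of 21 control peaks (28.6%) were absent from shSETD2 #1, against 26.2% of all control peaks, and 5 of 20 second control peaks from shSETD2 #2, against 22.2%. With fold enrichment of at least 3 the absent shares were 17.4% for shSETD2 #1, against 31.8%, and 35.3% for shSETD2 #2, against 29.1%. The pathway's share was thus above that of all peaks for both hairpins under the FDR limit and in the shorter lists, and for shSETD2 #2 alone under the fold limit.

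shSETD2 #1 lacked none of the 18 better supported member peaks, against 3.24% of all control peaks that met the median. shSETD2 #2 lacked 1 of 16, WWTR1 site 3, against 2.66%. The control sites of LATS1 absent from both shMETTL14 and shWTAP were all called in both SETD2 lists, save site 2, which the control alone had. Some of these calls were weak. Site 1 had a log10 p of -3.3 under shSETD2 #1 and -3.05 under shSETD2 #2. Site 7 had -2.72 over 61 bases under shSETD2 #2. Of the 22 control peaks also called in the second control, 4 were absent from shMETTL3, 8 from shMETTL14, 6 from shWTAP and 2 from shSETD2 #1. Of all control peaks also called there, 13.3% were absent from shMETTL3, 20.5% from shMETTL14, 19.9% from shWTAP and 14.5% from shSETD2 #1. The shMETTL14 and shSETD2 #1 lists share their control, so their values for LATS1 stand beside each other and no test of their difference was possible.

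Peaks that were kept were mostly narrower in the first set. Of member peaks matched 1 to 1 with a control peak, 11 of 18 were narrower under shMETTL3, 8 of 12 under shMETTL14, 11 of 16 under shWTAP and 15 of 19 under shSETD2 #1. Over all matched peaks the narrower shares were 56.7% under shMETTL3, 62.4% under shMETTL14, 62.2% under shWTAP and 64.9% under shSETD2 #1. The second control was narrower than the control for 12 of 21 member peaks, against 60.7% over all matched peaks. Under shSETD2 #2, 10 of 21 were narrower than in the second control and 8 wider, against 44.1% and 33.4% of all matched peaks. In the 4 first-set knockdowns the narrower share of member peaks was thus 61.1 to 78.9%, against 56.7 to 64.9% of all matched peaks.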

How the data were processed

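Build hg19 and the tools TopHat2 2.1.1 and FastQC 0.11.5 are named, without their roles, per the submitters' processing notes. Peak calling was by exomePeak, per the labels, which name 1 file for replicates 1 to 3. The sources used here give neither its version nor an annotation. Each deposited peak has a p-value for IP against input, the log10 of this p-value and of its false discovery rate (FDR) as scores, and the linear IP to input ratio as fold enrichment. The shorter deposited lists hold the peaks that reach p of 1e-05 or less with enrichment of 2 or more. The authors' values describe or filter peaks within a list.

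Repeated rows (11 to 21 per list) were counted once, and overlaps of peak blocks on the same strand were computed with Python 3.11.15 (pandas 2.3.3, numpy 2.4.6, scipy 1.17.1). The code was tested on copies of the control list with peaks removed at random or with blocks shifted. With 1 list per condition no p-value between conditions was computed, and depth per library is unknown. The 8 genes and all lists and comparisons were chosen with earlier results of these data known. Gene names of the 8 identifiers come from the definition of the gene set; their chromosomes match those of the symbols in RefSeq. All 8 are named in the text. Other pathway genes, HepG2 markers, transcript regions and motifs within peaks were not analysed here, since no table pairing identifiers with names and no hg19 genome were used. Restrictions to peaks that meet the median p-value, to peaks in both controls and to peaks without an opposite-strand peak were added after the data were examined.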

Additional observations from a re-analysis of the deposited data

How the results depend on the processing

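No paired analysis was possible because each list pools replicates 1 to 3, so leaving replicates out could not be tried either. Whole spans in place of blocks moved no count of absent, gained or shared member peaks by more than 1.5 times. How far depth limits weak peaks is unknown. For the values that changed, the cause was not tested beyond the fewer peaks that a stricter limit leaves.

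When 50% of each peak had to be shared, member control peaks absent numbered 12 under shMETTL3, 18 under shWTAP, 10 under shSETD2 #1 and 9 in the second control, and 5 second control peaks were absent from shSETD2 #2. The control shares were 44.4, 66.7, 37.0 and 33.3% in the same order of lists, against 35.1, 43.8, 38.9 and 45.2% of all control peaks. For shSETD2 #2 the share was 19.2%, against 31.9% of all second control peaks. Member peaks absent from their control then numbered 12 under shMETTL3, 13 under shMETTL14, 12 under shWTAP, 9 under shSETD2 #1, 7 under shSETD2 #2 and 8 in the second control, and 7 control peaks were overlapped in all other lists. With an FDR of at most 1e-05, 8 control peaks were absent from shSETD2 #1, 7 second control peaks from shSETD2 #2 and 3 control peaks from the second control. The absent shares were 36.4, 30.4 and 13.6% in that order, against 25.3, 21.4 and 28.3% of all peaks. Gains were then 1 in each of shMETTL3, shMETTL14, shWTAP and shSETD2 #2 and 0 under shSETD2 #1. The gained shares were 5.26, 6.25, 6.67, 5.26 and 0.0% in that order, against 10.2, 12.6, 13.1, 9.86 and 6.17% over whole lists. With fold enrichment of at least 3, 6 second control peaks were absent from shSETD2 #2 and 8 control peaks from the second control, 7 were overlapped in all other lists, and gains were 1 under shMETTL3, shSETD2 #2 and the second control and 0 under shMETTL14, shWTAP and shSETD2 #1. The absent shares were 35.3 and 34.8%, against 29.1 and 36.8% of all peaks, and the overlapped share was 30.4%, against 37.3%. Gained shares under shMETTL3, shSETD2 #2 and the second control were 5.0, 7.69 and 5.88%, against 13.7, 19.1 and 14.7% over whole lists. Whole-list gains were 15.6% under shMETTL14, 16.3% under shWTAP and 9.82% under shSETD2 #1. In the shorter lists 5 of 20 second control peaks were absent from shSETD2 #2, against 22.2% of all second control peaks. Gains were then 1 of 18 member peaks under shMETTL3, 0 of 15 under shWTAP and 0 of 17 under shSETD2 #1. Over all peaks of the shorter lists the gained shares were 10.5, 13.5 and 6.82% in that order. Gains were 2 of 18 under shMETTL14, 3 of 20 under shSETD2 #2 and 2 of 20 in the second control. The shares of all peaks were 12.8, 11.7 and 13.9% in that order. shMETTL14 lacked 10 to 17 of 21 to 27 member peaks in these 5 settings, a larger share than that of all control peaks in each. The member shares absent from shMETTL3 and from shWTAP were also above those of all control peaks in each setting.

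Where peaks had to meet their list's median p-value, a restriction added later, 3 were absent from shMETTL3, 7 from shMETTL14, 4 from shWTAP, 0 from shSETD2 #1, 1 from shSETD2 #2 and 2 from the second control. The member shares were 16.7, 38.9, 22.2, 0.0, 6.25 and 11.1% in the same order of lists. Over all peaks that met the median they were 2.42, 7.9, 7.41, 3.24, 2.66 and 7.28%. Member peaks and all peaks were not matched in support within this limit. Of the 22 control peaks also called in the second control, 4 were absent from shMETTL3, 8 from shMETTL14, 6 from shWTAP and 2 from shSETD2 #1, against 13.3, 20.5, 19.9 and 14.5% of all such control peaks in the same order of lists. Without peaks that overlap an opposite-strand peak, no absent count moved by more than 1.5 times.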
